A study of Mus musculus with 14 samples.

Results

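Alpha-1-antitrypsin is the main inhibitor of serine proteases in plasma. Hepatocytes make it in large amounts, and its best known target is neutrophil elastase, which it traps by offering an exposed reactive centre loop as bait. People have a single gene for it, whereas mice carry a small cluster of near-identical copies. The 5 copies described here are Serpina1a, Serpina1b, Serpina1c, Serpina1d and Serpina1e, 5 of the 17656 genes measured in each of 14 mouse liver libraries. They were chosen by gene name, with their TPM in these same libraries already known from earlier results. Their levels, the differences between groups and the split of the family among its members are therefore a description and carry no test.

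The livers came from mice 8 weeks old that were injected through a tail vein with saline or with 8 mg/kg concanavalin A (ConA), a plant lectin that activates T cells and causes acute hepatitis, and were taken 8 h later. Mice were wild type (WT) or knockout (KO) for Ythdf1, which encodes a reader protein for N6-methyladenosine in RNA. The study's methods place both genotypes on a C57BL/6 background. Saline was given to 3 WT and 3 KO mice and ConA to 4 mice of each genotype, with each liver from a separate mouse by the study's description. By their labels the saline groups differ in genotype alone. All values are TPM, a unit in which every library adds up to 1000000, so that a gene's TPM is its share of the library's transcripts after correction for transcript length. The number of reads behind a value is not known. Ythdf1 itself was not lower in the KO livers: it lay between 12.0 and 13.9 TPM in WT saline and 18.4 and 20.8 TPM in KO saline. After ConA it lay between 18.7 and 25.6 TPM in WT and between 15.5 and 26.2 in KO livers. A deletion of part of a gene can leave its transcript in place, so this value does not check the genotype, and KO and WT stand throughout for libraries labelled so.

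The genes lie side by side on the minus strand of chromosome 12 and each has 5 exons (RefSeq, GRCm38.p6). From the lowest coordinate upwards they are Serpina1b at chr12:103728156-103738189, Serpina1d at chr12:103763587-103773633, Serpina1a at chr12:103853295-103863619, Serpina1c at chr12:103894926-103904950 and Serpina1e at chr12:103946931-103956897. Their coding sequences are all 1239 bases long and align without a gap. The closest pair, Serpina1a and Serpina1c, differed by 19 substitutions (98.5% identity), and the most distant pairs, Serpina1b with Serpina1e and Serpina1d with Serpina1e, by 46 (96.3%).

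The differences were not spread evenly. Of the 1239 aligned coding columns 86 (6.94%) varied among the members, but when the sequence was cut into 5 equal parts, 1 of 248 columns varied in the second part against 28 of 247 in the last (11.3%). The first window of 60 bases with the most variable columns ran from coding base 1101 to 1160 and held 18 (30.0%). It lies close to the end of the coding sequence, where the reactive centre loop of this protein is encoded. The window is printed for all members because it is the part by which they are most easily told apart. Capitals mark the columns that vary among the 5 genes, and the sequences are those of the coding strand.

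Serpina1a, chr12:103853757-103853816: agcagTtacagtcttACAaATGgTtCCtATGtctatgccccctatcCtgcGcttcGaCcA

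Serpina1b, chr12:103728324-103728383: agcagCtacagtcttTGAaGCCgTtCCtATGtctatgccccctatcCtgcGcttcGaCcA

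Serpina1c, chr12:103895094-103895153: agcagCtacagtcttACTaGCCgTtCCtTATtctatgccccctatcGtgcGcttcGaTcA

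Serpina1d, chr12:103763762-103763821: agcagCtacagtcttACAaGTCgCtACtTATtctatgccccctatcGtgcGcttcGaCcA

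Serpina1e, chr12:103947100-103947159: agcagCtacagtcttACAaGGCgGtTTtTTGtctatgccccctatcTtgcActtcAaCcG

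Outside this window most of the family's sequence is common to several members, and the libraries were read as single reads of 50 bases. Of all stretches of 50 bases in its transcript, 27.8% of those of Serpina1a occurred in no other member, 55.0% for Serpina1b, 26.7% for Serpina1c, 52.0% for Serpina1d and 62.1% for Serpina1e. Serpina1a and Serpina1c shared 69.3% and 69.4% of their stretches with each other, and Serpina1a and Serpina1d 36.5% and 35.5%. Between 23.7% and 25.6% of each member's stretches were in all 5. A read from a shared stretch cannot be given to 1 gene by its sequence, so the TPM of a single member depends on how such reads were divided or left out, which the sources used here do not settle. The sum of the 5 members, called the Serpina1 total here, does not depend on how reads were divided among them, but it would be lowered if shared reads were left out. Some stretches also occur outside the family, in the transcripts B430119L08Rik and Gm8893, and 19.1% of the stretches of Serpina1a occurred in no other gene at all.

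**Figure D1:**
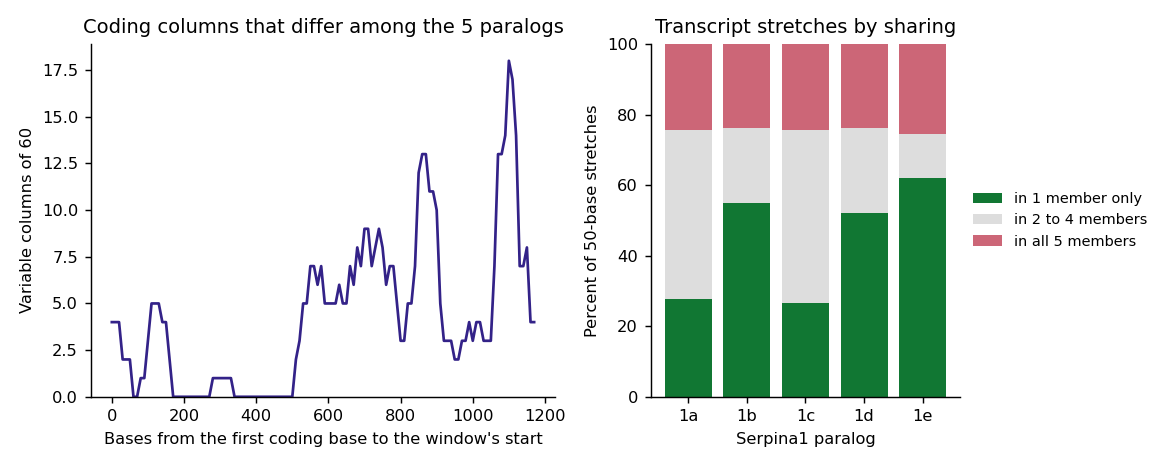
Left, number of variable columns in windows of 60 coding bases, against the distance from the first coding base to the start of the window. Right, percent of the 50-base stretches of each transcript that occur in 1 member only, in 2 to 4 members or in all 5. Variable columns peak near the end of the coding sequence, and Serpina1a and Serpina1c have the smallest shares of stretches of their own (27.8% and 26.7%).

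The promoter entries of the RefSeq table hold 300 bases, among them the 250 before the gene's start. In pairs, their best local alignments were 91.4% to 97.6% identical, over 239 to 300 columns. Motifs were searched in the 250 bases before the gene's start. TTGCNNAA, a motif bound by C/EBP factors, was found once, searching both strands, in Serpina1b, Serpina1d and Serpina1e and not in Serpina1a or Serpina1c, against 9.56% of 32851 mouse promoters of the same length. CAAAGT, a motif of HNF4, was found once in Serpina1a, Serpina1b and Serpina1d, against 12.6%. TTCNNNGAA, a motif of STAT factors, was in none of the 5 windows, against 7.02%. These are matches of letters and no more. The promoters of Serpina1a and Serpina1d are printed because the balance of these 2 genes is followed through the libraries below, with the C/EBP and HNF4 matches on either strand in capitals.

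Serpina1a, chr12:103863620-103863869, minus strand: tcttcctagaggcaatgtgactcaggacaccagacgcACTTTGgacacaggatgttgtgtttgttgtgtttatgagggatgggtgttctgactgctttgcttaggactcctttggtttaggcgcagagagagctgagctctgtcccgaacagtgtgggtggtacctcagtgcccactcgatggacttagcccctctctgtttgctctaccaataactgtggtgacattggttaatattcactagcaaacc

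Serpina1d, chr12:103773634-103773883, minus strand: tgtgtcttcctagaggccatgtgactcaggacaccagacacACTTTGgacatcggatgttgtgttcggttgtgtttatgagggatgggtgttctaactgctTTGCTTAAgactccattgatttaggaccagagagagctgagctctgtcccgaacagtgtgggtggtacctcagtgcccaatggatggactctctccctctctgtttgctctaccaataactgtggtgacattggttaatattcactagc

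Several features of the libraries bear on the comparisons and come first. WT saline replicates 2 and 3 were unusually close, with a median absolute log2 ratio of 0.0644 over genes, where the other 17 pairs of replicates lay between 0.115 and 0.401. Whether they are 1 library could not be tested without counts. The 18 positive acute-phase proteins took 2.04% to 2.84% of all TPM in the saline livers and 21.3% to 25.6% after ConA. Since every library has the same sum, this leaves less for all other genes, and values rescaled by each library's median ratio to the other libraries are given where they matter. Markers of hepatocytes (Alb, Apoa1, Ttr, Ass1 and Cps1) summed to 10.2% to 12.7% of TPM in saline livers and 4.87% to 7.82% after ConA, and neutrophil markers to 3.64 to 10.5 TPM before and 318 to 952 TPM after. Whether a lower level means fewer hepatocytes or less RNA in each cannot be told apart in whole liver. The last feature is the makeup of the Serpina1 family itself.

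The libraries fell on 2 sides by the balance of Serpina1d and Serpina1a. The ratio of Serpina1d to Serpina1a TPM was 3.29, 3.52 and 3.43 in the 3 WT saline livers and 3.70 in WT ConA 4. In WT ConA 1 to 3 it was 1.06, 1.16 and 0.956, in KO saline 0.898, 0.934 and 1.10, and in KO ConA 1.15, 1.08, 1.34 and 1.12. By this ratio WT ConA 4 thus stood with the saline WT mice and away from its own group, and no library lay between 1.34 and 3.29. Over 5277 genes it was WT ConA 3 that lay farthest from its group. Its median absolute log2 ratios to the other WT ConA libraries were 0.363 to 0.401. Those of WT ConA 4 to WT ConA 1 and 2 were 0.197 and 0.185.

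The same split appeared in the shares of the Serpina1 total. Serpina1d made up 28.2% to 28.5% of it in WT saline 1 to 3 and WT ConA 4, and 14.9% to 19.3% in the other 10 libraries. Serpina1a made up 7.65% to 8.68% in the first 4 and 13.6% to 18.0% in the other 10. Serpina1b was close to constant at 33.6% to 39.8% over all 14, and Serpina1c spanned 23.8% to 26.8% in the first 4 and 26.4% to 34.0% in the others, so its ranges overlapped.

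**Figure D2:**
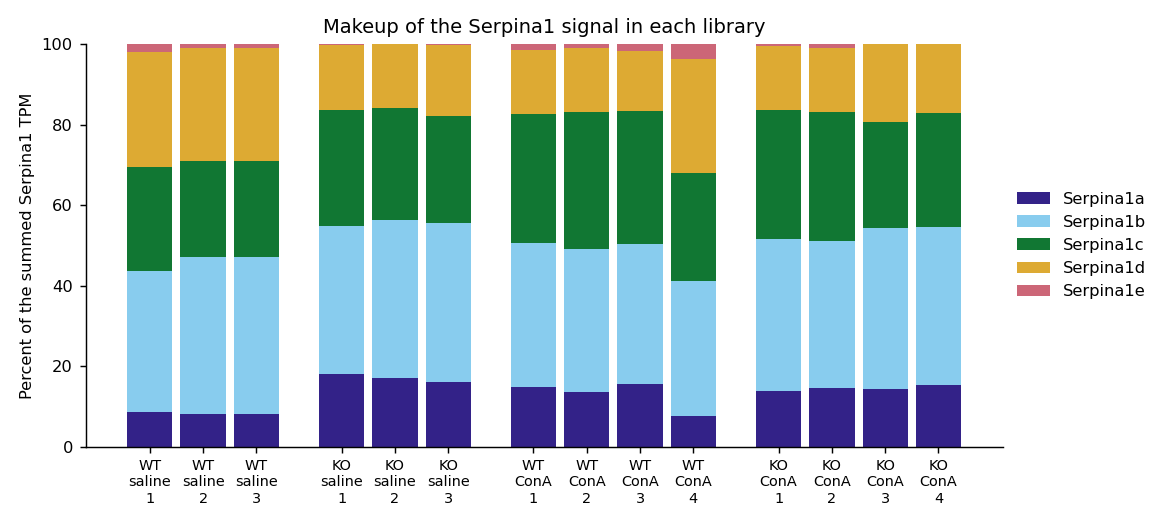
Share of each paralog in the summed Serpina1 TPM (percent) in each of the 14 libraries, 1 bar per mouse. The 3 WT saline bars and WT ConA 4 hold a wide Serpina1d band (28.2% to 28.5%) and a narrow Serpina1a band (7.65% to 8.68%), unlike the other 10.

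Genes elsewhere in the genome parted the libraries in the same way. They were picked after their values were seen, as the 3 genes with the highest and the 3 with the lowest correlation with this ratio among 6475 genes, together with Serpina3c, and are given as a description. Ren1, which encodes renin, on chromosome 1, lay between 6.17 and 12.3 TPM in the WT saline livers and WT ConA 4 and between 0 and 0.29 in the other 10. Ctse, the gene of cathepsin E, also on chromosome 1, lay between 5.51 and 31.0 against 0.11 and 1.17. Pttg1, the gene of securin, on chromosome 11, went the other way, with 3.96 to 11.6 TPM in those 4 libraries and 49.3 to 118 in the others. Camk2b (0.06 to 0.14 against 2.5 to 11.6 TPM) and Atox1 (129 to 217 against 339 to 660), both on chromosome 11, and Cryzl1 on chromosome 16 (19.4 to 20.7 against 8.01 to 14.2) divided likewise. On chromosome 12, Serpina3c, a relative in the neighbouring antichymotrypsin cluster, lay between 65.1 and 192 TPM against 0.30 and 17.9.

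All WT saline mice lie on 1 side of this split and all KO mice on the other. In the comparisons with WT saline, whatever sets the 2 sides apart cannot be told apart from ConA or genotype. ConA against saline within the KO mice, and KO ConA against WT ConA 1 to 3, do not cross the split.

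**Figure D3:**
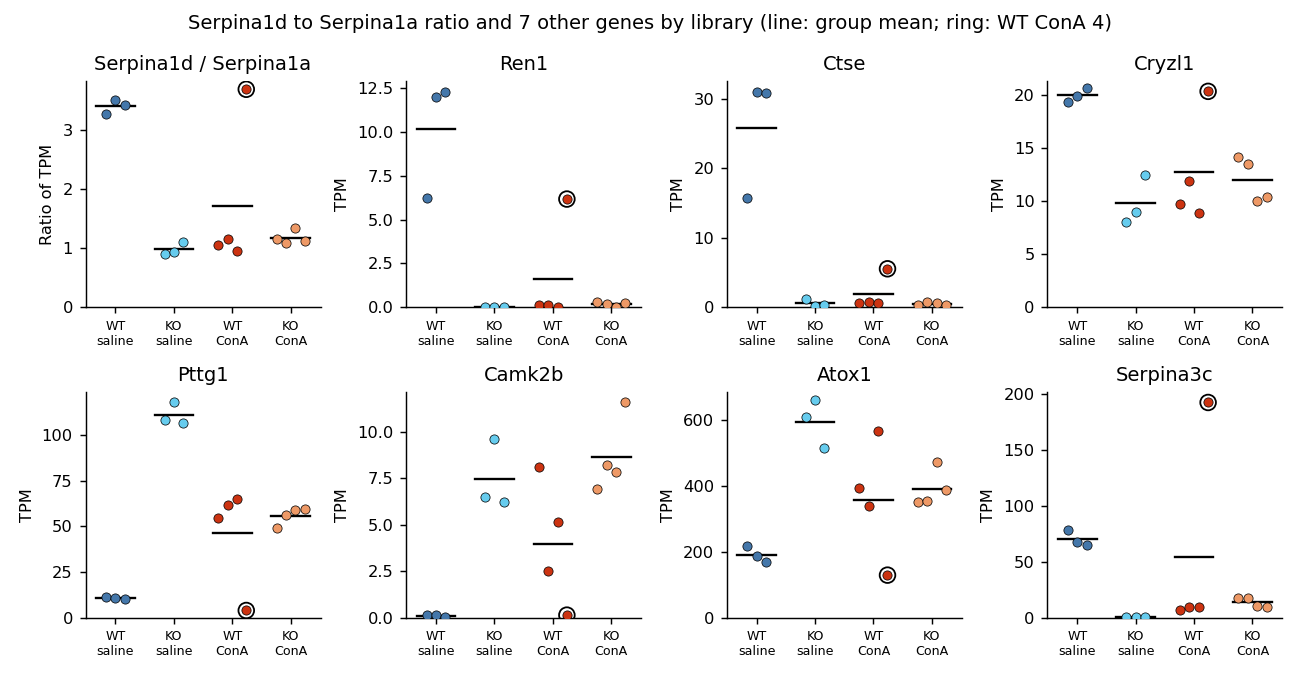
Ratio of Serpina1d to Serpina1a TPM, and TPM of 7 other genes chosen for a like pattern, by group. Points are libraries, lines are group means and the ring marks WT ConA 4, which lies on the side of the WT saline points and away from WT ConA 1 to 3, as in the ratio (3.70) and in Ren1 (6.17 TPM).

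Within the KO mice, all on 1 side of the split, the Serpina1a share was 16.0% to 18.0% of the total before ConA and 13.9% to 15.2% after. The Serpina1 total was lower after ConA in every library. It was 19174, 20158 and 20590 TPM in KO saline and 14646, 13714, 13529 and 12562 in KO ConA. The ranges did not overlap, and the ConA mean of 13613 ± 854 (SD, n = 4) was 68.2% of the saline mean of 19974 ± 726 (SD, n = 3). On the log2 scale the total was lower by a difference of -0.55, or -0.59 after rescaling.

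The 4 abundant members shared this direction in the KO mice. Serpina1a was 3450, 3436 and 3296 TPM in KO saline and 2030, 2007, 1952 and 1911 in KO ConA, or 58.2% of the saline mean. Its log2 difference was -0.78 ± 0.11 (SE). The KO ConA values were close together and all lay under the saline values.

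Serpina1b, the most abundant member in all 14 libraries, was 7038, 7925 and 8127 TPM in KO saline and 5507, 4985, 5380 and 4955 in KO ConA, a log2 difference of -0.56 ± 0.13. Serpina1c was 5536, 5582 and 5498 TPM in KO saline and 4716, 4415, 3574 and 3550 in KO ConA (-0.46 ± 0.14). Neither gene's groups overlapped, and among the KO ConA mice Serpina1c was the more variable.

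Serpina1d was 3098, 3208 and 3642 TPM in KO saline and 2335, 2167, 2610 and 2133 in KO ConA (-0.52 ± 0.13). Serpina1e was 52.4, 7.18 and 28.2 TPM in KO saline and 57.9, 140, 12.8 and 14.2 in KO ConA, and its groups overlapped. Its log2 difference of 0.64 ± 0.81 was smaller than its error.

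In this comparison 4 of the 5 members passed the threshold used for all genes (limma, adjusted p under 0.05), all of them lower, where 30.7% of 10988 genes were called lower and 33.9% higher. Since the members were chosen with these values known, nothing is read from that count. The same holds for the counts of called members and their p-values in the other comparisons below.

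In the WT mice the Serpina1 total was also lower after ConA, at 16017, 14671, 14766 and 12864 TPM against 23159, 24415 and 23759 in saline. The ConA mean was 14580 ± 1298 (SD, n = 4), 61.3% of the saline mean of 23778 ± 628 (SD, n = 3), or 63.7% without WT ConA 4. The log2 difference was -0.71, and -0.61 after rescaling. All ConA values lay below all saline values.

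The members did not share this direction evenly in the WT mice, and the answer turned on WT ConA 4. Serpina1d was 6611, 6895 and 6709 TPM in WT saline and 2532, 2323, 2201 and 3642 in WT ConA, a log2 difference of -1.36 ± 0.18 that became -1.52 without WT ConA 4. Serpina1a was 2011, 1960 and 1954 TPM in WT saline and 2389, 1995, 2303 and 984 in WT ConA, with a log2 difference of -0.12 ± 0.28. Without WT ConA 4 the direction of Serpina1a turned, to 0.17. In WT ConA 1 to 3 it averaged 113% of the WT saline mean, while Serpina1d averaged 34.9%.

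WT ConA 4, set against the saline mice on its own side of the split, gave a more even picture. There Serpina1a was at 49.8% of the WT saline mean, Serpina1b at 48.2%, Serpina1c at 59.2% and Serpina1d at 54.0%, with the total at 54.1%. Serpina1e was at 161%. This is 1 mouse and has no replicate.

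Serpina1b was 8064, 9543 and 9240 TPM in WT saline and 5710, 5196, 5143 and 4317 in WT ConA (log2 difference -0.82 ± 0.14). Serpina1c was 6001, 5803 and 5649 TPM in WT saline and 5139, 4993, 4857 and 3442 in WT ConA (-0.35 ± 0.16). For both genes every ConA TPM was below every saline TPM, with WT ConA 4 the lowest. The median ratio used for rescaling was 0.791 in WT ConA 3 and 1.025 to 1.069 in WT saline. After rescaling, Serpina1c in WT ConA 3 lay above all WT saline values, so its groups overlapped. The log2 differences were then -0.72 for Serpina1b and -0.26 for Serpina1c.

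Serpina1e was 474, 215 and 207 TPM in WT saline and 248, 164, 260 and 480 in WT ConA, and the groups overlapped (-0.05 ± 0.38, or 0.05 after rescaling). Of the 5 members 2 were called lower, Serpina1b and Serpina1d, and none higher, beside 31% of 10768 genes called lower and 22% higher. The same counts, 2 lower and 0 higher, were found without WT ConA 4, beside 30.5% and 20% of all genes.

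**Figure D4:**
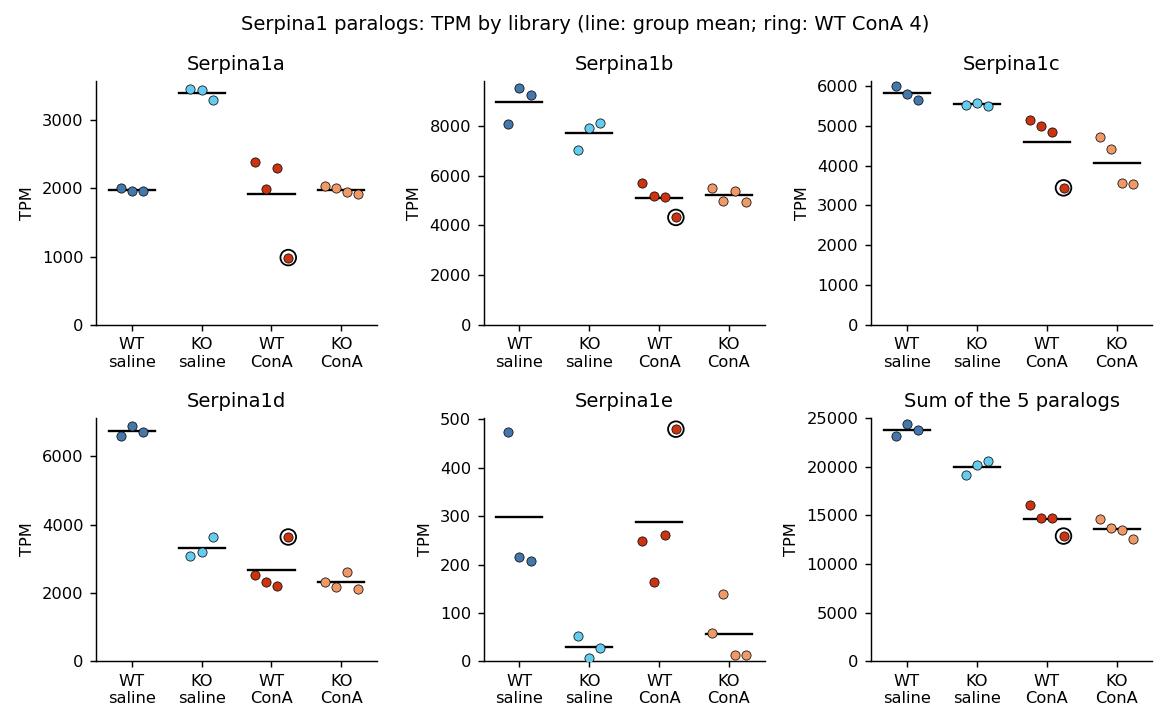
TPM of each paralog and of their sum by group, 1 point per library, with the group mean as a line and WT ConA 4 ringed. The sum is lower in all ConA libraries (12562 to 16017 TPM) than in all saline libraries (19174 to 24415 TPM), while Serpina1a and Serpina1d differ between the saline genotypes in opposite directions.

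Between the saline groups the total was lower in KO than in WT mice, by a log2 difference of -0.25, or -0.19 after rescaling, and the groups did not overlap. The makeup differed more than the total. Serpina1a was higher in KO saline, with a mean at 172% of that of WT saline (log2 difference 0.78 ± 0.09). Serpina1d was lower, at 49.2% of WT saline (-1.03 ± 0.10). Serpina1b (-0.22 ± 0.12) and Serpina1c (-0.07 ± 0.09) differed less. The Serpina1b groups overlapped in TPM, while the Serpina1c groups did not, at 5498 to 5582 TPM in KO and 5649 to 6001 in WT mice. After rescaling the Serpina1c groups also overlapped, and its log2 difference was -0.01. The Serpina1a and Serpina1d differences are those of the split described above, in which the KO saline mice match WT ConA 1 to 3, so genotype and the 2 sides cannot be told apart here.

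Of the 5 members 1 was called higher (Serpina1a) and 2 lower (Serpina1d and Serpina1e) between the saline groups, beside 6.3% of 10459 genes called higher and 12.9% lower. After rescaling the shares over all genes were 7.14% and 7.4%. With WT saline replicates 2 and 3 averaged and counted as 1 mouse, 1 member was called, lower, and the calls over all genes were 49 in place of 2009.

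After ConA the 2 genotypes were close. The total was 93.4% as high in KO as in WT mice, a log2 difference of -0.10, and the groups overlapped. Against WT ConA 1 to 3 it was 89.8%, a log2 difference of -0.16. There the TPM ranges nearly touched, at 12562 to 14646 in KO and 14671 to 16017 in WT mice. After rescaling these groups overlapped, with KO ConA 3 (median ratio 0.847) above WT ConA 2 (1.076). The log2 difference was 0.12 ± 0.24 for Serpina1a, 0.04 ± 0.13 for Serpina1b, -0.17 ± 0.16 for Serpina1c and -0.19 ± 0.17 for Serpina1d. Without WT ConA 4 these were -0.17, -0.04, -0.31 and -0.03, so that the direction of Serpina1a and Serpina1b turned, and rescaling also turned that of Serpina1b, to -0.04. None of the 5 members was called by limma, beside 0.342% of 10519 genes called higher and 0.0856% lower (0.115% and 0.124% after rescaling). Of the members 1 had an unadjusted p under 0.05, beside 1753 of the 10519 genes.

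Serpina1e was the exception among the members, and its pattern did not follow the split. It lay between 164 and 480 TPM in all 7 WT livers, WT ConA 1 to 3 included, and between 7.18 and 140 TPM in all 7 KO livers, with no overlap. The KO mean was 9.79% of the WT mean in saline mice (log2 difference -3.57 ± 0.65) and 19.5% after ConA (-2.88 ± 0.65), or 25.1% of the mean of WT ConA 1 to 3 (-2.60). It was also the least abundant member everywhere, at 0.0356% to 3.73% of the total, and the KO values were widely spread. Its rank among all genes of a library ran from 251 to 5698, where that of Serpina1b ran from 9 to 29.

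**Figure D5:**
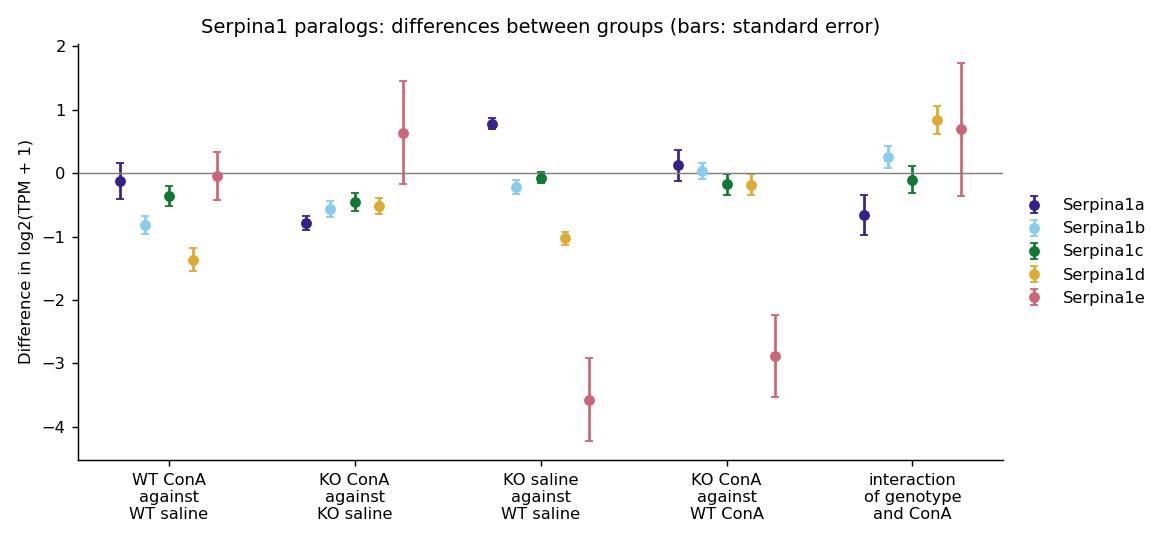
Difference in log2(TPM + 1) of each paralog in the 5 comparisons, with its standard error from the fit over all genes. Values below 0 are lower in the group named first; the 4 abundant paralogs lie between -0.78 and -0.46 for ConA in KO mice, and Serpina1e lies lowest where KO is set against WT (-3.57 and -2.88).

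The difference between the ConA responses of the genotypes, the KO response minus the WT response, was 0.16 for the total on the log2 scale and 0.02 after rescaling. The rescaling moved the median of this difference over all genes by -0.12. For the members it was -0.66 ± 0.32 for Serpina1a, 0.25 ± 0.17 for Serpina1b, -0.10 ± 0.21 for Serpina1c, 0.84 ± 0.22 for Serpina1d and 0.69 ± 1.05 for Serpina1e. 1 member, Serpina1d, was called higher, beside 2.64% of 11327 genes called higher and 2.14% lower, and none after rescaling or with WT saline replicates 2 and 3 averaged. Without WT ConA 4, 1 member was called higher and 1 lower, beside 3.49% and 3.29% of all genes. The differences were then -0.95 for Serpina1a, 0.18 for Serpina1b, -0.24 for Serpina1c, 0.9987 for Serpina1d and 0.97 for Serpina1e. This comparison crosses the split, since WT saline enters it.

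The order of the members by TPM, which is corrected for length, followed the same split. Serpina1b was first and Serpina1e last in all 14 libraries. Between them the order was Serpina1d, Serpina1c, Serpina1a in the 3 WT saline livers and WT ConA 4, with ranges in WT saline that did not overlap. In 7 libraries it was Serpina1c, Serpina1d, Serpina1a and in 3 it was Serpina1c, Serpina1a, Serpina1d. In KO saline the ranges of Serpina1a (3296 to 3450) and Serpina1d (3098 to 3642) overlapped, so those neighbours were not separated beyond their spread, whereas in KO ConA each neighbour was separated from the next.

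Among the genes whose log2 TPM followed the Serpina1 total most closely over the 14 libraries, among 5272 with a mean TPM of 10 or more, were Man2b1 (r = 0.987), a lysosomal mannosidase, Oxa1l (0.985), an insertase of the inner mitochondrial membrane, Shpk (0.982) and Tlcd2 (0.980). Most of this likeness is the difference between saline and ConA livers, with Oxa1l at 24.4 to 31.1 TPM in saline and 10.8 to 15.3 after ConA. For deviations from the group means the 3 most alike were Cct7 (0.904), Wars (0.900) and Ptgds (0.898). These correlations share libraries and group structure and are given without a test. Among the members themselves the deviations of Serpina1a and Serpina1d from their group means ran against each other (r = -0.84 over 14 libraries). Those of Serpina1a and Serpina1c ran together (0.81). Both values lean on WT ConA 4, which lay apart from its group. There Serpina1a, Serpina1c and Serpina1d were at 984, 3442 and 3642 TPM. In WT ConA 1 to 3 they were at 1995 to 2389, 4857 to 5139 and 2201 to 2532 TPM. Neither r was computed without WT ConA 4.

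The genes around alpha-1-antitrypsin were examined from lists of known pathway members, and these genes were tested. Most of the other clade A serpins rose after ConA. Of 11 tested, 8 rose and 1 fell in WT mice, and the same counts of 8 and 1 were found in KO mice (beside 22% and 31% of all genes in WT and 33.9% and 30.7% in KO mice), with median log2 differences of 1.73 and 3.28 beside -0.07 and 0.07 over all genes. Without WT ConA 4 the WT counts were 8 and 3, beside 20% and 30.5% of all genes. Serpina3n, an antichymotrypsin relative and an acute-phase protein, went from 346 to 435 TPM in WT saline to 6071 to 6771 in WT ConA (log2 difference 3.99 ± 0.12, limma adjusted p = 8.63e-08), and from 141 to 179 TPM to 7412 to 9300 in KO mice (5.65 ± 0.14, adjusted p = 4.04e-10). Serpina3f rose from 2.85 to 4.76 TPM to 252 to 416 in WT mice (6.13 ± 0.21, adjusted p = 1.24e-07). Serpina10, the protein Z-dependent protease inhibitor, rose from 165 to 209 TPM to 779 to 1066 (2.26 ± 0.15, adjusted p = 3.72e-06). None of these ranges overlapped.

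Between the genotypes after ConA, 1 of these 11 serpins was called, Serpina3f, at 549 to 670 TPM in KO against 252 to 416 in WT mice (0.88 ± 0.16, adjusted p = 0.049996), and this call was lost without WT ConA 4, after rescaling and in most other alternatives. In saline 7 of 11 were lower in KO mice, beside 12.9% of all genes, and 4 with WT saline replicates 2 and 3 averaged, beside 0.187%.

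Of 20 other secreted protease inhibitors and relatives tested, 8 rose and 10 fell in WT mice (22% and 31% of all genes). In KO mice 9 rose and 7 fell (33.9% and 30.7%), which is near the shares over all genes. In each genotype Serpina7 was among those that rose and Serpinf1 among those that fell. Neither of these serpins is known to inhibit proteases. A2m, alpha-2-macroglobulin, rose from 0.02 to 0.26 TPM to 50.8 to 114 in WT mice (5.95 ± 0.27, adjusted p = 5.42e-07), and Itih4, an inter-alpha-trypsin inhibitor heavy chain, from 612 to 657 TPM to 1876 to 2141 (1.61 ± 0.11, adjusted p = 4.58e-06). Itih2, a sister chain, fell in WT mice (-0.65 ± 0.18, adjusted p = 0.0125) and rose in KO mice (0.35 ± 0.12, adjusted p = 0.0234), though the KO call was lost after rescaling. In KO ConA against WT ConA none of the 20 was called and 5 had an unadjusted p under 0.05, beside 1753 of 10519 genes.

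Transcripts of the neutrophil proteases that alpha-1-antitrypsin inhibits were barely seen in these livers. The proteins themselves were not measured here, so these values do not give their amounts. Elane, neutrophil elastase, lay between 0 and 0.24 TPM over all 14 libraries, Prtn3, proteinase 3, between 0.09 and 1.17, Ctsg, cathepsin G, between 0 and 0.08, and Prss57 between 0 and 0.06. None passed the filter on low values, so none was tested. Markers of mature neutrophils were present after ConA, where all 6 rose in each genotype, beside 22% of all genes in WT and 33.9% in KO mice.

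Of the 11 transcription factors known at promoters of this kind, 4 rose and 4 fell after ConA in WT mice (22% and 31% of all genes), and 5 rose and 3 fell in KO mice (33.9% and 30.7%), counts near the shares over all genes. Cebpd, an acute-phase C/EBP factor, rose from 4.64 to 5.37 TPM to 37.4 to 51.0 in WT mice (2.85 ± 0.15, adjusted p = 9.81e-07). Stat3, which carries the IL-6 signal, rose from 24.3 to 25.2 TPM to 66.4 to 108 (1.81 ± 0.17, adjusted p = 2.67e-05), and Cebpb from 191 to 205 to 412 to 501 (1.17 ± 0.12, adjusted p = 3.70e-05). Between the genotypes after ConA limma called none of the 11, and 3 had an unadjusted p under 0.05, beside 1753 of 10519 genes.

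The list of IL-6 type signaling also held the IL-1 pathway genes Il1b and Il1r1. Of its 9 tested genes, 5 rose and 1 fell in WT mice (22% and 31% of all genes). In KO mice 8 rose and none fell (33.9% and 30.7%). Il1b and Il1r1 were among those that rose in each genotype. Socs3, the feedback inhibitor of IL-6 type signaling, rose from 3.37 to 4.43 TPM to 36.2 to 71.8 in WT mice (3.31 ± 0.22, adjusted p = 4.38e-06). In KO mice it rose from 2.58 to 2.98 to 51.6 to 114 (4.38 ± 0.26, adjusted p = 1.96e-07). Il1r1, the IL-1 receptor, rose by 3.32 ± 0.27 in WT mice (adjusted p = 1.21e-05) and Osmr, the oncostatin M receptor subunit, by 2.12 ± 0.24 (adjusted p = 9.50e-05). Jak2, a kinase of IL-6 type receptors, had a difference of 0.46 ± 0.23 in WT mice (adjusted p = 0.118, called after rescaling). In KO mice it rose by 1.29 ± 0.15 (adjusted p = 2.84e-05). Between the genotypes after ConA none of the 9 was called, and 6 had an unadjusted p under 0.05, beside 1753 of 10519 genes.

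Of 20 genes for folding, export and degradation of secreted proteins, 12 rose and none fell in WT mice (22% and 31% of all genes), and 14 rose and 1 fell in KO mice (33.9% and 30.7%). Hspa5, the chaperone BiP, rose from 146 to 195 TPM to 1243 to 2095 in WT mice (3.22 ± 0.20, adjusted p = 2.97e-06) and by 3.22 ± 0.25 in KO mice (adjusted p = 1.20e-06). Syvn1, the ubiquitin ligase HRD1, rose from 18.4 to 19.4 TPM to 170 to 354 (3.49 ± 0.23, adjusted p = 3.88e-06), and Pdia4, a disulfide isomerase, from 63.3 to 76.8 TPM to 266 to 468 (2.33 ± 0.19, adjusted p = 1.23e-05). Between the genotypes after ConA none of the 20 was called and 5 had an unadjusted p under 0.05, beside 1753 of 10519 genes.

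Among the other secreted liver proteins the positive acute-phase proteins and the carriers went in opposite directions. Of 18 acute-phase genes 16 rose and none fell in each genotype, where 22% of all genes rose in WT and 33.9% in KO mice. Saa2, a serum amyloid A, rose from 101 to 154 TPM to 42234 to 49917 in WT mice (8.60 ± 0.16, adjusted p = 8.69e-09), Lcn2, lipocalin 2, by 7.78 ± 0.18 (adjusted p = 2.88e-08) and Saa3 by 8.85 ± 0.23 (adjusted p = 3.38e-08), while the difference of Saa4 was 0.21 ± 0.22 (adjusted p = 0.460). Of 11 tested carriers 1 rose and 8 fell in each genotype, where 31% of all genes fell in WT and 30.7% in KO mice. Serpina6, the corticosteroid-binding globulin and a close relative of the Serpina1 genes, fell from 641 to 994 TPM to 191 to 225 in WT mice (-2.04 ± 0.17, adjusted p = 1.32e-05) and from 410 to 559 to 87.2 to 177 in KO mice (-2.01 ± 0.22, adjusted p = 1.42e-05). Rbp4, the retinol carrier, fell by a log2 difference of -1.64 ± 0.13 (adjusted p = 1.25e-05) and Apoa2 by -1.10 ± 0.18 (adjusted p = 0.000693) in WT mice. The median of the carriers was -0.71 in WT and -0.98 in KO mice, beside -0.71 and -0.55 for the Serpina1 total. None of the 18 acute-phase genes and 11 carriers was called between the genotypes after ConA. Of these, 5 and 3 had an unadjusted p under 0.05, beside 1753 of 10519 genes.

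Markers of the cells in the liver moved with ConA as follows. All 5 hepatocyte markers tested fell in each genotype, and 5 of 6 Kupffer cell markers fell in WT and 3 of 6 in KO mice. Of 5 sinusoidal endothelial markers 1 rose and 2 fell in each genotype. Over all genes 31% fell and 22% rose in WT mice, and 30.7% fell and 33.9% rose in KO mice. T cell markers summed to 0.79 to 4.29 TPM over all libraries and the stellate cell markers to 14.8 to 97.2, with 1 of 4 stellate markers tested called lower in KO mice and the 1 tested in WT mice not called by limma (0 at an unadjusted p under 0.05). Their part in the Serpina1 levels was not tested.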

How the data were processed

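RNA from 14 livers was sequenced by the authors on a BGISEQ-500 as single reads of 50 bases. They deposited TPM per gene for each library, with 17656 genes in each. The submitters' processing notes name Bowtie2, RSEM 1.3.1 and GRCm38.p6, while the study's methods name STAR and HTSeq. Which of them made the TPM is not stated, and they treat reads shared by paralogs differently. Read depth is not known.

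Differences were fitted with limma 3.58.1 (lmFit, eBayes with trend; R 4.3.3) on log2(TPM + 1), for genes that reached a TPM of 1 in a number of libraries equal to the smaller group's size (3 for the difference of responses), with Benjamini-Hochberg adjusted p under 0.05 over all genes tested. Each comparison used its own groups. Fold changes on this scale understate those of low genes. The scripts were tested on simulated data. The alternatives were rescaling by median ratio, another pseudocount (0.1), filter (5 TPM or none), the replicate block, all libraries in the fit, averaging WT saline replicates 2 and 3, and leaving out each library.

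The members, the lists and the naming rule were chosen with earlier results of these data known. Lists held clade A serpins, protease inhibitors and relatives, transcription factors, neutrophil proteases, IL-6 and IL-1 signaling, protein folding, acute-phase proteins, carriers and cell markers. Short lists (4 genes) were named in full, and each other list by the 3 genes of smallest p for ConA in WT mice and the 1 of smallest p between the genotypes after ConA. Tf, Trac, Serpina1f and Serpina3h were not analysed here. A few genes and a motif that the rules name are not reported here. Sequences, promoters and gene positions are from RefSeq (GRCm38.p6), where all 5 members were found, and transcripts of GENCODE vM21 were searched for shared stretches. P-values measure the spread between these mice.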

Additional observations from a re-analysis of the deposited data

Results flagged for a closer look

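WT ConA 4 lay far from the other 3 WT ConA libraries in 3 of the 24 family values checked in the 2 groups of 4: Serpina1c at 3442 TPM (the others at 4857 to 5139), Serpina1d at 28.3% of the Serpina1 total (14.9% to 15.8%) and a ratio of Serpina1d to Serpina1a of 3.70 (0.956 to 1.16). About 1 in 20 groups is flagged in this way by chance, and these 3 values are not independent.

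The ConA response of 6 named genes outside the family differed between the genotypes by limma's test of the difference (KO response minus WT response, log2): Serpina3n (1.66 ± 0.18, adjusted p = 0.000792), Serpina3f (2.08 ± 0.24, adjusted p = 0.00107), Itih2 (1.003 ± 0.22, adjusted p = 0.0280), Saa2 (1.12 ± 0.24, adjusted p = 0.0280), Itih4 (0.67 ± 0.15, adjusted p = 0.0307) and Stat3 (0.89 ± 0.20, adjusted p = 0.0314). WT saline enters each, so the split of the libraries cannot be told apart from genotype. With WT saline replicates 2 and 3 averaged, the calls of Itih2, Saa2, Itih4 and Stat3 were lost and those of Serpina3n and Serpina3f remained.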

How the results depend on the processing

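The Serpina1 total kept its direction in all 5 comparisons under every alternative run. Its log2 difference moved by more than the spread between replicates after rescaling in 3 of them, to -0.61 for ConA in WT mice, -0.19 between the saline groups and 0.0163 for the difference of responses, and when the 5 members were averaged in place of summed, to -0.54, -0.34 (ConA in KO mice), -0.82 and -0.62 (KO ConA against WT ConA), where the low Serpina1e counts as much as the others. Leaving out 1 library at a time gave -0.76 to -0.65 for ConA in WT mice, -0.59 to -0.52 in KO mice, -0.27 to -0.22 between saline groups, -0.16 to -0.05 after ConA and 0.10 to 0.20 for the difference of responses. With the replicate block the totals were -0.65, -0.52, -0.25, -0.10 and 0.13.

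Counts of called genes were less stable. Between the saline groups 2009 became 958 with no filter, 332 with all 14 libraries in the fit, 49 when the WT saline replicates 2 and 3 were averaged, and 45 to 2739 leaving out 1 library (45 without WT saline replicate 3, 51 without 2, 286 and 640 without KO saline 1 and 2). Between the ConA groups 45 became 3 with no filter, 25 after rescaling, 140 with the replicate block, 640 with all libraries, and 5 to 52 leaving out 1 library (8 without WT ConA 4, 5 to 16 without any library but WT ConA 1). For the difference of responses 541 became 345 with no filter, 358 with the replicate block, 28 with the 2 WT saline libraries averaged, and 22 to 769 leaving out 1 library (22 and 27 without WT saline replicate 3 or 2, 33 and 63 without KO saline 1 or 2, 186 and 82 without KO ConA 2 or 4). The causes were not tested. For ConA in WT and KO mice leaving out 1 library gave 4585 to 7048 and 6326 to 7814.

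The replicate numbers did not pair the mice throughout: same-numbered libraries deviated with r from -0.27 to 0.42, over 0.1 in 6 of 19 pairs. The highest r was between WT ConA 3 and KO ConA 3, and its cause was not tested. The read depth is unknown, and without it the noise of low values such as Serpina1e in KO mice cannot be given.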
